A study of Mus musculus with 6 samples.

Results

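The transcripts described here encode the 10 enzymes that lead from citrate to elongated and desaturated fatty acids: *Acly*, *Acaca*, *Acacb*, *Fasn*, *Elovl5*, *Elovl6*, *Scd1*, *Scd2*, *Fads1* and *Fads2*. They were taken by gene symbol, as a pathway, from a table of 13809 genes, and all 10 were found in it. RNA depleted of ribosomal RNA had been sequenced from E18.5 hearts of 3 wild-type (WT) and 3 *Pkm1*-knockout (KO) samples. The labels name heart, and the study's text ventricular tissue. KO embryos were homozygous for a CRISPR/Cas9 deletion in the exon that is specific to *Pkm1*, the muscle isoform of the glycolytic enzyme pyruvate kinase. The deletion is in the germline and therefore present in every cell type of the heart, it was made in zygotes of hybrid BDF1 mice, and the embryos came from crosses of heterozygous parents. The methods call the replicates biological and do not say whether hearts were pooled.

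In lipogenesis, ATP citrate lyase splits citrate exported from mitochondria into acetyl-CoA, acetyl-CoA carboxylase turns acetyl-CoA into malonyl-CoA, and fatty acid synthase builds palmitate from both. Elongases of the endoplasmic reticulum then lengthen the chain, stearoyl-CoA desaturases place the first double bond in saturated chains, and the desaturases encoded by the *Fads* genes act on polyunsaturated ones. Many of these genes are known targets of the sterol regulatory element-binding proteins (SREBPs), and malonyl-CoA also blocks the entry of fatty acids into mitochondria, which makes its synthesis a switch between storage and oxidation in muscle.

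WT libraries held 15597756 to 19875546 counts and KO libraries 15567624 to 18577404. Levels are given as CPM, counts brought to a common library size with edgeR's TMM method, in 3 libraries per genotype that are named a, b and c in the order of the table's columns. *Pkm*, the targeted gene, was measured at 1294, 1296 and 1366 CPM in WT and at 547, 530.3 and 549 CPM in KO libraries, and counts per gene do not part its isoforms. All 8 cardiomyocyte markers examined were present, and *Cidea* was at 5.37 to 6.77 CPM, the only one of 8 adipocyte markers among the genes tested. *Xist* was at 4.80 to 5.79 CPM in WT and 2237 to 2332 CPM in KO libraries, and 4 Y-linked genes (*Uty*, *Ddx3y*, *Kdm5d* and *Eif2s3y*) were at 33.9 to 98.9 CPM in WT and without a single count in KO, so effects of sex and genotype cannot be told apart in any comparison below. Hepatocyte transcripts also differed: *Alb*, *Afp* and *Apoa1*, all 3 of the tested hepatocyte markers, summed to 23.0 to 28.8 CPM in WT and 9.93 to 10.7 CPM in KO libraries. Liver is a lipogenic tissue. Of the 8 cardiomyocyte markers, 6 were lower and 1 was higher in KO hearts by edgeR's quasi-likelihood test (5 and 0 with DESeq2), the higher one being *Myh7* with overlapping libraries and a log2 fold change of 0.05. They summed to 47546 to 50243 CPM in WT and 42440 to 43414 CPM in KO libraries. The part of the hepatocyte and cardiomyocyte transcripts in the results was not tested.

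At an adjusted p under 0.05 (edgeR's quasi-likelihood test, Benjamini-Hochberg over all 13804 genes tested), 7 of the 10 enzyme transcripts were lower in KO hearts, 1 was higher and 2 were not called. Over all genes tested, 30.3% were called by the same rule, 15.7% lower and 14.6% higher. *Scd1* fell most, and *Acly*, *Fasn*, *Elovl5*, *Fads1* and *Fads2* fell by 0.21 to 0.26 on the log2 scale. *Acaca* fell less, *Elovl6* rose, and *Acacb* and *Scd2* were the ones not called. For the 8 called enzymes the WT and KO libraries did not overlap, lower in KO for 7 and higher for 1, where 42.4% of all genes tested were apart, 21.4% lower and 21.0% higher. The median log2 fold change was -0.23 over the 10 enzymes and 0.0017 over all genes tested. *Scd1* was the only enzyme both called and changed by at least 1.5-fold, which held for 3.2% of all genes tested downward and 2.99% upward. In bulk tissue, fewer cells of a type and less RNA per cell cannot be told apart.

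**Figure D1:**
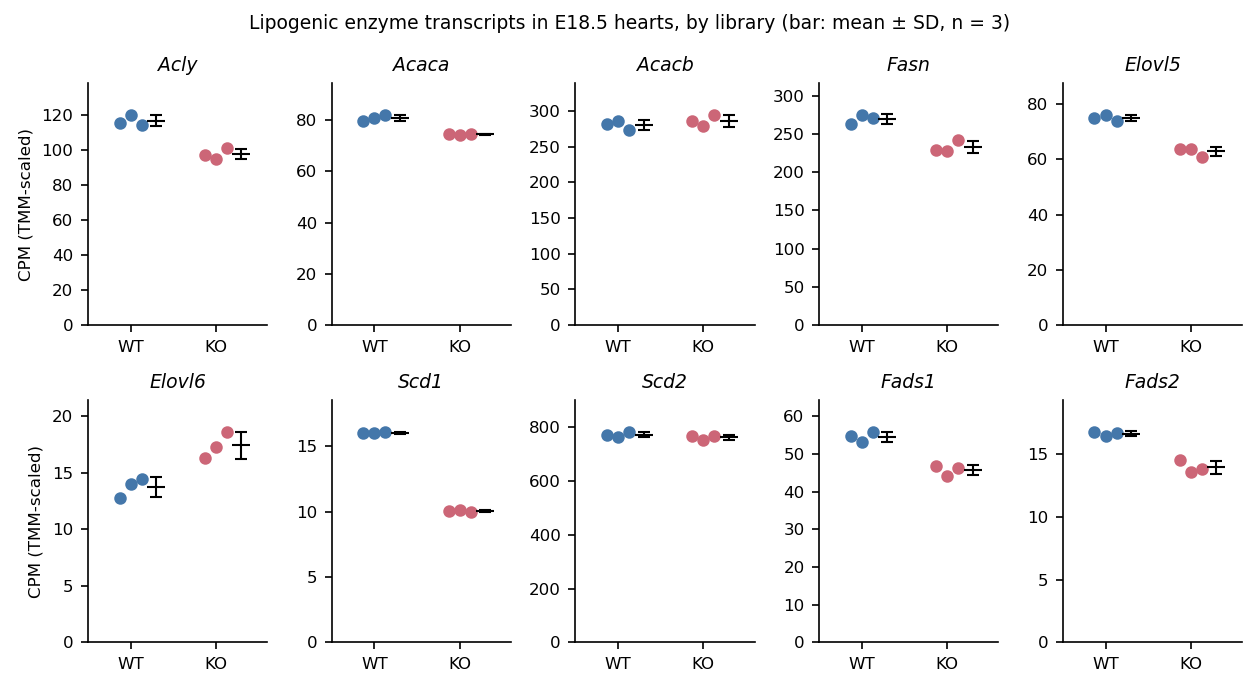
CPM of each enzyme transcript (vertical axes from 0) in the 3 WT libraries (blue) and the 3 KO libraries (red), with mean ± SD as black bars. The groups are apart for all but *Acacb* and *Scd2*, and *Elovl6* is the only one with the KO libraries on top.

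**Figure D2:**
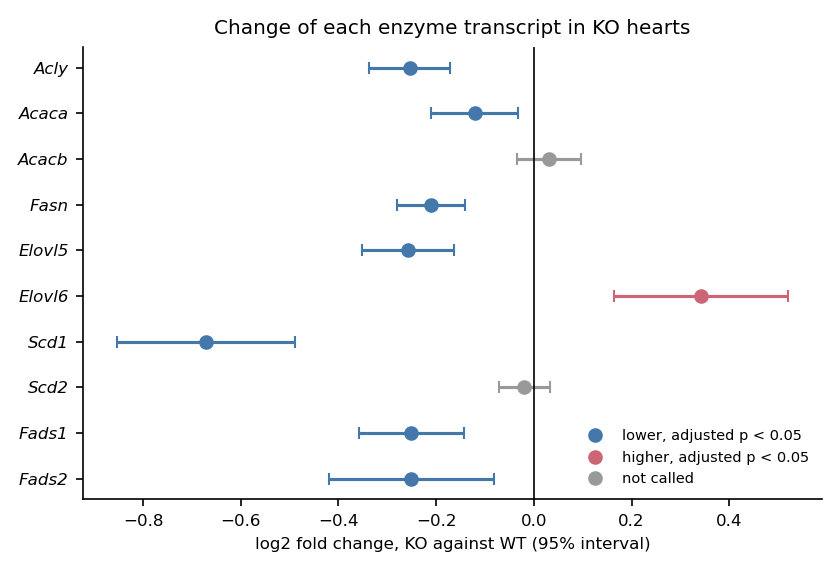
Log2 fold change of KO against WT (horizontal axis) with its 95% interval for each enzyme (vertical axis), coloured by the call at an adjusted p under 0.05. *Scd1* lies farthest to the left at -0.67, and the intervals of *Acacb* and *Scd2* include 0.

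*Acly* encodes ATP citrate lyase, the enzyme at the branch from the mitochondrial citrate pool to lipid synthesis, and lies on chromosome 11 (ENSMUSG00000020917.17, chr11:100476353-100528000, minus strand, GRCm38). It was at 115, 120.3 and 114 CPM in WT libraries a, b and c and at 97.4, 95.2 and 101 CPM in KO libraries a, b and c. Every KO library was below every WT library. The log2 fold change was -0.25 (adjusted p = 2.4e-05 by edgeR's quasi-likelihood test, standard error 0.0405), which put the KO mean 16.1% below that of WT.

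The carboxylases divided. *Acaca* (chr11:84129672-84401651, plus strand) encodes acetyl-CoA carboxylase alpha, the cytosolic form that feeds synthesis, and *Acacb* (chr5:114146535-114250761, plus strand) encodes the beta form of the mitochondrial outer membrane, whose malonyl-CoA restrains fatty acid oxidation. *Acaca* was at 79.8, 81.0 and 82.1 CPM in WT and at 74.6, 74.3 and 74.4 CPM in KO libraries. The KO libraries lay close together below all WT libraries, 8.09% lower in the mean. The coefficient of variation was 1.43% in WT and 0.231% in KO, below the counting error of 2.51% to 2.92%. The spread between libraries thus understates the uncertainty. The log2 fold change of *Acaca*, -0.12, had a standard error of 0.0432 and an adjusted p of 0.034 by edgeR's quasi-likelihood test, the weakest of the 7 lower calls. That call did not hold under DESeq2 (adjusted p = 0.089, with 0.0192 to 0.089 over all alternatives) with WT a and WT b summed, or without any 1 of WT b, KO a, KO b and KO c. Its count is also uncertain in another respect, since 30.4% of the 50-base words of *Acaca* transcripts occur in transcripts of other genes too, chiefly *Gm5182*, so that such reads could be given to either gene or to neither. *Acacb* was at 282, 286 and 273 CPM in WT and at 286, 279 and 295 CPM in KO libraries, with overlapping groups. Its log2 fold change was 0.03 (95% interval -0.04 to 0.10, adjusted p = 0.503 by edgeR's quasi-likelihood test).

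*Fasn*, on chromosome 11 (chr11:120805846-120824547, minus strand), encodes the multifunctional fatty acid synthase, the palmitate-forming enzyme that gives its name to the pathway. WT libraries held 263, 275 and 271 CPM and KO libraries 229.6, 227 and 242 CPM. The groups were apart, with a KO mean 13.6% lower and a log2 fold change of -0.21 (adjusted p = 2.43e-05 by edgeR's quasi-likelihood test, standard error 0.0336). With 3600 to 5398 counts per library, *Fasn* was the most deeply counted of the 7 lower enzymes.

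The elongases moved in opposite directions. *Elovl5*, on chromosome 9 (chr9:77917364-77984519, plus strand), encodes an elongase of polyunsaturated chains, and *Elovl6*, on chromosome 3 (chr3:129532355-129638495, plus strand), encodes the elongase that takes palmitate to stearate. *Elovl5* was at 75.1, 76.2 and 74.0 CPM in WT and at 63.8, 63.7 and 61.0 CPM in KO libraries. All KO libraries were lower, and the log2 fold change was -0.26 (adjusted p = 9.59e-05 by edgeR's quasi-likelihood test, standard error 0.0458). *Elovl6* was at 12.7, 14.0 and 14.5 CPM in WT and at 16.3, 17.3 and 18.6 CPM in KO libraries. Each KO library exceeded each WT library, with a KO mean 1.27 times that of WT. The log2 fold change of *Elovl6* was 0.34 (adjusted p = 0.00354 by edgeR's quasi-likelihood test, standard error 0.0867), and it rested on 220 to 347 counts per library.

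Promoter windows, from 250 bases before to 50 bases after the start in RefSeq on GRCm38.p6, were at hand for 7 of the 10 genes and are shown for *Fasn* and *Elovl5*, which were lower in KO hearts, and for *Elovl6*, which was higher. Each is written 5′ to 3′ on the strand of the gene, with matches to 5 motifs in capitals: CCAAT (bound by NFY), CACGTG (E-box), TCACNCCAC (a sterol regulatory element), GGGCGG (GC box) and TATAAA, on either strand.
*Fasn*, chr11:120824498-120824797, minus strand: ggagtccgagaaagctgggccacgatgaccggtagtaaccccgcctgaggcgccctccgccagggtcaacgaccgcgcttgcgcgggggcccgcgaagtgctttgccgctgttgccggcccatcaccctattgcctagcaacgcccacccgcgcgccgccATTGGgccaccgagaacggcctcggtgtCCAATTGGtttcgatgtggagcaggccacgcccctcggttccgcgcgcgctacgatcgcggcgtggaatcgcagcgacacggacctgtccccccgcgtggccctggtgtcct
*Elovl5*, chr9:77917115-77917414, plus strand: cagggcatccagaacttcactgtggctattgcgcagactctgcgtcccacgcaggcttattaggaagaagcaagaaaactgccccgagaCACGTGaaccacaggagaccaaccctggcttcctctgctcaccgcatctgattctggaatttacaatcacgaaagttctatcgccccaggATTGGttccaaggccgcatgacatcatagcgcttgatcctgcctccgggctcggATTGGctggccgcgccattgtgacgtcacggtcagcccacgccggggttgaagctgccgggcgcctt
*Elovl6*, chr3:129532136-129532435, plus strand: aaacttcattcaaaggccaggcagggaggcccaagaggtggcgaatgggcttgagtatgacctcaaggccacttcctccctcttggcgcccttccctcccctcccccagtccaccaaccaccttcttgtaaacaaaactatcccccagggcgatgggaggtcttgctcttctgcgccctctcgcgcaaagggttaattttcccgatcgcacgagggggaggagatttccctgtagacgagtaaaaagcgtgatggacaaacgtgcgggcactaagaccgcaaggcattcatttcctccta

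The *Fasn* window held 3 matches to CCAAT, beginning 90, 62 and 59 bases before the start, of which the latter pair overlap in one palindrome. *Elovl5* had matches to CCAAT beginning 71 and 17 bases before the start and an E-box beginning 161 bases before it. None of the 5 motifs matched in the windows of *Elovl6* and *Acaca*. Over the 7 genes with a window, CCAAT was found in 4 (*Acly*, *Acacb*, *Fasn* and *Elovl5*), the GC box in 2 (*Acly* and *Fads2*), the E-box in 1, TATAAA in 1 (*Acacb*) and the sterol regulatory element in 0. Of all 32851 RefSeq windows of that length, 37.4% held CCAAT, 35.7% the GC box, 7.15% the E-box, 13.6% TATAAA and 1.24% the sterol regulatory element. Among the 13148 windows of genes tested here, the shares were 37.1% for CCAAT, 61.0% for the GC box, 9.72% for the E-box, 7.40% for TATAAA and 1.17% for the sterol regulatory element. The windows of *Acaca* (chr11:84195188-84195487) and *Acacb* (chr5:114165268-114165567) lie inside the gene spans given above, not at their outer ends. The matches of *Acacb*, with the only TATAAA, therefore describe an internal start. Most of the window of *Fads2* (chr19:10101454-10101753) also lies inside its gene, whose span reaches 10101746. A match of letters is a description of these windows and not a measured binding site.

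The stearoyl-CoA desaturases, which turn stearate into oleate and palmitate into palmitoleate, lie in a cluster on chromosome 19. *Scd1* (chr19:44394455-44407879, minus strand) was at 16.0, 16.0 and 16.1 CPM in WT and at 10.1, 10.1 and 9.98 CPM in KO libraries. The separation was the widest of the 10 enzymes, with a KO mean 37.2% below WT and a log2 fold change of -0.67 (adjusted p = 1.51e-06 by edgeR's quasi-likelihood test, standard error 0.0885). The libraries of a genotype differed by less than counting alone would give, with a coefficient of variation of 0.426% in WT and 0.618% in KO against a counting error of 5.65% to 7.91% for 160 to 313 counts, so the standard error of the test, not the SD, carries the precision. *Scd2* (chr19:44293674-44306864, plus strand) was at 771, 763 and 782 CPM in WT and at 769, 751 and 766 CPM in KO libraries. These groups overlapped, and the log2 fold change was -0.02 with a 95% interval of -0.07 to 0.03 (adjusted p = 0.601 by edgeR's quasi-likelihood test). *Scd4*, of the same cluster, was at 8.28 to 11.4 CPM over WT and 9.03 to 9.82 CPM over KO libraries and was not called (adjusted p = 0.727 by edgeR's quasi-likelihood test). Of their 50-base words, 4.56% for *Scd1* and 3.97% for *Scd2* occur in other genes too, chiefly of the family. *Scd1* and *Scd2* have 145 such words in common. Since *Scd2* is far more abundant, reads from these words could weigh on the *Scd1* count and on its ratio to *Scd2*. How such reads were counted is not known, and their part in the *Scd1* values was not tested.

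The polyunsaturated desaturases fell together. *Fads1* (chr19:10182888-10196877, plus strand) and *Fads2* (chr19:10062765-10101746, minus strand) encode the delta-5 and delta-6 desaturases that act in turn on the essential fatty acids toward arachidonic and docosahexaenoic acid. *Fads1* was at 54.6, 53.2 and 55.8 CPM in WT and at 46.8, 44.1 and 46.3 CPM in KO libraries. *Fads2* was at 16.8, 16.4 and 16.7 CPM in WT and at 14.5, 13.6 and 13.8 CPM in KO libraries. In both genes every KO library was below every WT library, and both had a log2 fold change of -0.25, with standard errors of 0.0521 and 0.0824 and adjusted p-values of 5.67e-04 and 0.0222 by edgeR's quasi-likelihood test. The call of *Fads2*, which rested on 215 to 322 counts per library, did not hold under DESeq2 (adjusted p = 0.0818, with 0.00741 to 0.0818 over all alternatives) or without any 1 of WT a, KO b and KO c. Their neighbour *Fads3* (chr19:10041569-10060110, plus strand), a related desaturase gene outside the 10, moved the other way, from 87.6 ± 2.24 to 96.5 ± 2.52 CPM (SD, n = 3 each), with a log2 fold change of 0.14 (adjusted p = 0.0132 by edgeR's quasi-likelihood test).

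Levels of different genes were compared per length, as CPM per kilobase of merged exons. *Scd2* was by far the most abundant at 141 ± 1.77 in WT (SD, n = 3), and made up 52.7% to 53.8% of the summed level of the 10 enzymes in WT and 55.5% to 56.1% in KO libraries. *Acacb* (29.1 ± 0.705), *Fasn* (24.6 ± 0.591), *Acly* (22.1 ± 0.594) and *Elovl5* (21.3 ± 0.305) followed. At the bottom of the order stood *Fads1* (11.3 ± 0.278), *Fads2* (5.05 ± 0.0567), *Acaca* (4.74 ± 0.0679), *Scd1* (3.27 ± 0.014) and *Elovl6* (2.14 ± 0.139). The WT ranges of neighbours in this order did not overlap. *Acly* and *Elovl5* came close, at a lowest of 21.7 and a highest of 21.6, as did *Fads2* and *Acaca*, at 4.99 and 4.81. WT libraries of *Fads2* and *Scd1* varied by 1.12% and 0.426%, below their counting errors of 5.57% to 6.82% and 5.65% to 7.91%. Those of *Acaca* and *Elovl5* varied by 1.43% each, also below counting errors of 2.51% to 2.92% and 2.59% to 3.15%. For these genes the ranges and SDs therefore understate the uncertainty of the order. In KO hearts the order changed at the bottom: *Scd1*, at 2.05 ± 0.0127, was below *Elovl6*, at 2.71 ± 0.18 (SD, n = 3 each), with no overlap. *Fads2*, at 4.24 ± 0.15, had a lower mean than *Acaca*, at 4.36 ± 0.0101, but these KO libraries overlapped. The summed level of the 9 enzymes other than *Scd2* was 123 to 126 in WT and 108 to 112 in KO libraries. Lengths set part of this order, since with the longest transcript in place of merged exons *Acaca* stood at 8.51 and above *Fads2* at 5.28 in WT, and *Elovl5* at 27.0 and above both *Fasn* at 26.8 and *Acly* at 26.4.

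**Figure D3:**
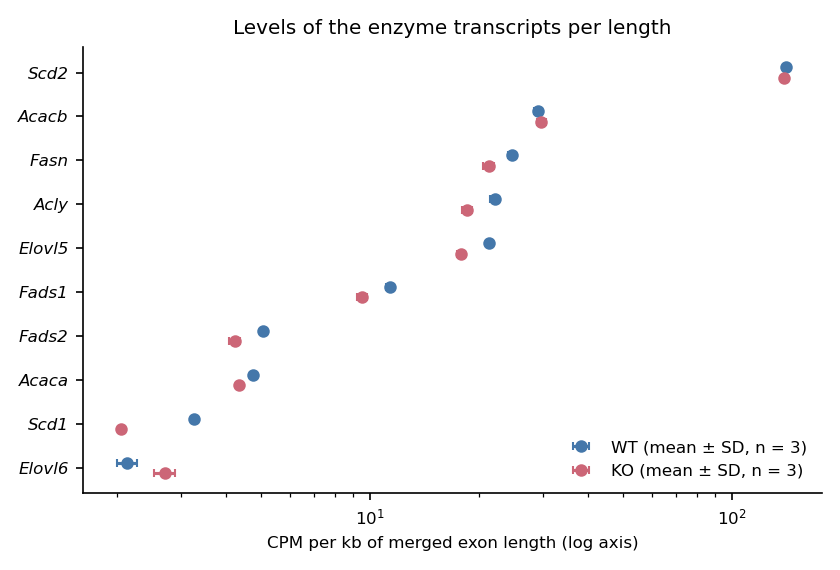
CPM per kilobase of merged exons (horizontal log axis) of each enzyme transcript in WT (blue) and KO (red) hearts, as mean ± SD of 3 libraries. *Scd2* stands alone near 141, and *Scd1* and *Elovl6* exchange places at the bottom of the order in KO hearts.

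Ratios of 2 transcripts within a library do not depend on how libraries are scaled. There were 48.2, 47.8 and 48.6 *Scd2* counts for each *Scd1* count in WT libraries and 76.4, 74.3 and 76.7 in KO libraries. The log2 ratio of *Scd1* to *Scd2* differed by -0.65 (KO minus WT), with a standard error of 0.0808 from counting alone, above the 0.016 that the spread between libraries gives. The ratio of *Elovl5* to *Elovl6* counts went from 5.48 ± 0.389 to 3.62 ± 0.32 and that of *Acaca* to *Acacb* from 0.289 ± 0.0104 to 0.26 ± 0.00721 (SD, n = 3 each). *Acaca* to *Fasn* went the other way, from 0.3 ± 0.00535 to 0.319 ± 0.011 (SD, n = 3 each). These 4 ratios did not overlap between the genotypes. The ratio of *Fads1* to *Fads2* was 3.28 ± 0.0597 in WT and 3.28 ± 0.0678 in KO (SD, n = 3 each), with overlapping libraries and a log2 difference of -0.00044, whose standard error from counting alone was 0.0827, above the 0.0228 from the spread between libraries. With 3 libraries against 3, the two-sided exact permutation test cannot give a p below 0.1, which the 4 separated ratios reached (0.125 after Benjamini-Hochberg adjustment over 5 pairs), and it gave 0.9 for *Fads1* to *Fads2*.

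**Figure D4:**
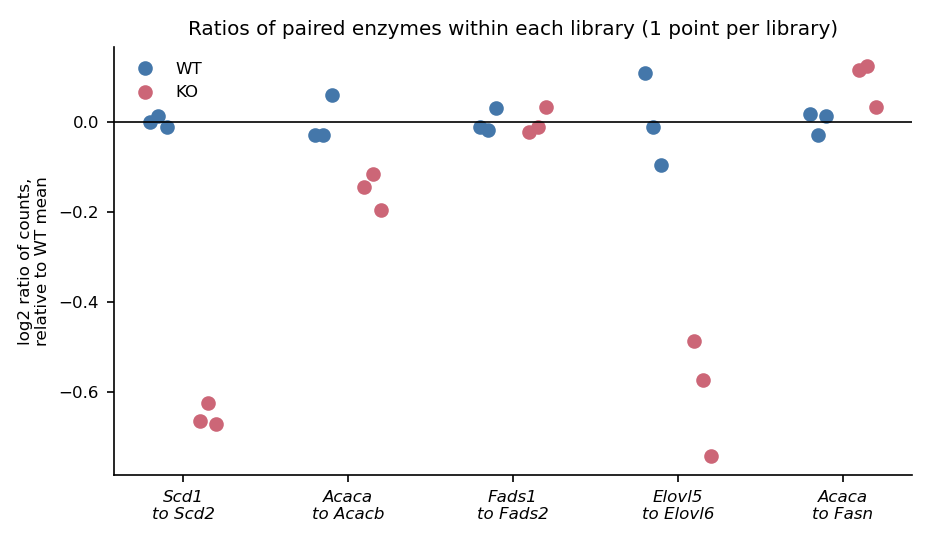
Log2 ratio of counts of 2 enzymes within each library, relative to the WT mean of that pair (vertical axis), for 5 pairs and for WT (blue) and KO (red), 1 point per library. *Scd1* to *Scd2* and *Elovl5* to *Elovl6* are shifted most in KO, by -0.65 and -0.60, while the points of *Fads1* to *Fads2* intermingle.

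The lists of neighbouring pathways are to be read beside the shares over all genes tested, 15.7% lower and 14.6% higher. Of 11 genes that supply acetyl-CoA and NADPH, 3 were lower, 1 was higher and 7 were not called, with a median log2 fold change of -0.03 (1 lower without KO a). *Acss1*, a mitochondrial acetyl-CoA synthetase, averaged 44.6 ± 1.67 CPM over WT and 31.3 ± 0.625 CPM over KO libraries (SD, n = 3 each), which was lower by edgeR's quasi-likelihood test (log2 fold change -0.51, adjusted p = 1.27e-07). *Idh1* and *Cs*, encoding cytosolic isocitrate dehydrogenase and citrate synthase, fell by 0.15 and 0.08 on the log2 scale, and *Pgd*, of the NADPH-forming pentose phosphate pathway, rose by 0.18. The citrate carrier *Slc25a1* was at 7.68 to 9.79 CPM over all 6 libraries and malic enzyme *Me1* at 19.4 to 22.7 CPM, with log2 fold changes of -0.13 and -0.01 and adjusted p-values of 0.413 and 0.936 by edgeR's quasi-likelihood test.

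Among 16 tested genes of the remaining steps of elongation and desaturation, 4 were lower and 2 higher, with a median of 0.08. Under DESeq2 or without KO b or KO c only 2 were lower, and without WT a 0 were higher by edgeR's quasi-likelihood test. The lower ones were *Cyb5r3* (log2 fold change -0.26), *Cyb5a* (-0.25) and *Cyb5b* (-0.11), which encode the cytochrome b5 reductase and cytochromes b5 that pass electrons to desaturases, and *Tecr* (-0.15), which encodes the reductase of the last step of elongation. *Fads3* and the dehydratase gene *Hacd3* (0.19) were the higher ones, and the libraries of *Hacd3* overlapped between the genotypes. None of 9 tested genes of the separate mitochondrial fatty acid synthesis, which makes the precursor of lipoic acid, was called by edgeR's quasi-likelihood test (0 also at an unadjusted p under 0.05 and 0 with DESeq2, limma voom and edgeR's likelihood ratio and exact tests), and their log2 fold changes lay between -0.11 and 0.21.

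Of 28 regulators of lipogenesis, 4 were lower, 7 higher and 17 not called, beside 15.7% lower and 14.6% higher over all genes tested. *Insig1*, which encodes the sterol-sensing anchor of SREBPs and is itself an SREBP target, fell from 64.2, 64.1 and 63.9 CPM in WT to 29.2, 29.6 and 28.2 CPM in KO libraries, a log2 fold change of -1.14 (adjusted p = 2.11e-15 by edgeR's quasi-likelihood test, standard error 0.0537). *Srebf2*, encoding the SREBP of sterol synthesis, fell from 164 ± 5.68 to 124 ± 4.40 CPM, and *Srebf1*, encoding that of fatty acid synthesis, rose from 53.4 ± 3.59 to 61.2 ± 1.24 CPM (SD, n = 3 each), with log2 fold changes of -0.40 and 0.19 and adjusted p-values of 8.86e-09 and 0.00669 by edgeR's quasi-likelihood test. In both genes the genotypes were apart in every library. *Mid1ip1*, whose product promotes the polymerization of acetyl-CoA carboxylase, fell by 0.42 on the log2 scale and *Mlxipl*, encoding the glucose-responsive factor ChREBP, by 0.36. *Nfya*, encoding a subunit of NFY, rose by 0.27 (adjusted p = 6.92e-04 by edgeR's quasi-likelihood test). By qRT-PCR, the study found *Nfya* mRNA unaltered in KO hearts, and it reported less NFYa protein there. The reason for the difference in RNA was not tested. *Prkag1*, encoding a regulatory subunit of AMPK, the kinase that inhibits acetyl-CoA carboxylase, rose by 0.26 (adjusted p = 3.82e-04 by edgeR's quasi-likelihood test). *Thrsp* and *Nr1h3* were low, at 0.442 to 1.16 and 1.63 to 3.49 CPM, and were not called (adjusted p = 0.629 and 0.101 by edgeR's quasi-likelihood test).

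Of 19 tested genes for acyl-CoA and glycerolipid synthesis, 6 were lower and 1 higher, with a median of -0.03, and 3 were lower under DESeq2 or without KO a. *Lpin3*, *Lpin2* and *Lpin1*, the phosphatidate phosphatase genes, had log2 fold changes of -0.69, -0.28 and -0.17, and the acyl-CoA synthetase genes *Acsl4* and *Acsl3* had -0.32 and -0.12. The value of *Lpin3* rested on only 21 to 45 counts per library (standard error 0.229, adjusted p = 0.0241 by edgeR's quasi-likelihood test). *Agpat2*, an acyltransferase gene for phosphatidate, averaged 15.7 ± 1.18 CPM over WT and 22.9 ± 1.31 CPM over KO libraries (SD, n = 3 each), which was higher by edgeR's quasi-likelihood test (log2 fold change 0.54, adjusted p = 9.37e-06).

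The sterol branch, which shares acetyl-CoA with fatty acid synthesis, was lower in 17 of 22 tested genes and higher in 0 by edgeR's quasi-likelihood test (0 also at an unadjusted p under 0.05 and 0 with DESeq2 and limma voom), and the other 5 were not called. Its median log2 fold change of -0.51 was below that of the 10 fatty acid enzymes, -0.23, although this difference itself was not tested. *Msmo1* (-0.95), *Idi1* (-0.93), *Fdps* (-0.77), *Lss* (-0.72) and *Cyp51* (-0.72), which encode enzymes of the sterol pathway, were among those that changed most. Among the 10 enzymes, only *Scd1*, at -0.67, had a log2 fold change below the sterol median.

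**Figure D5:**
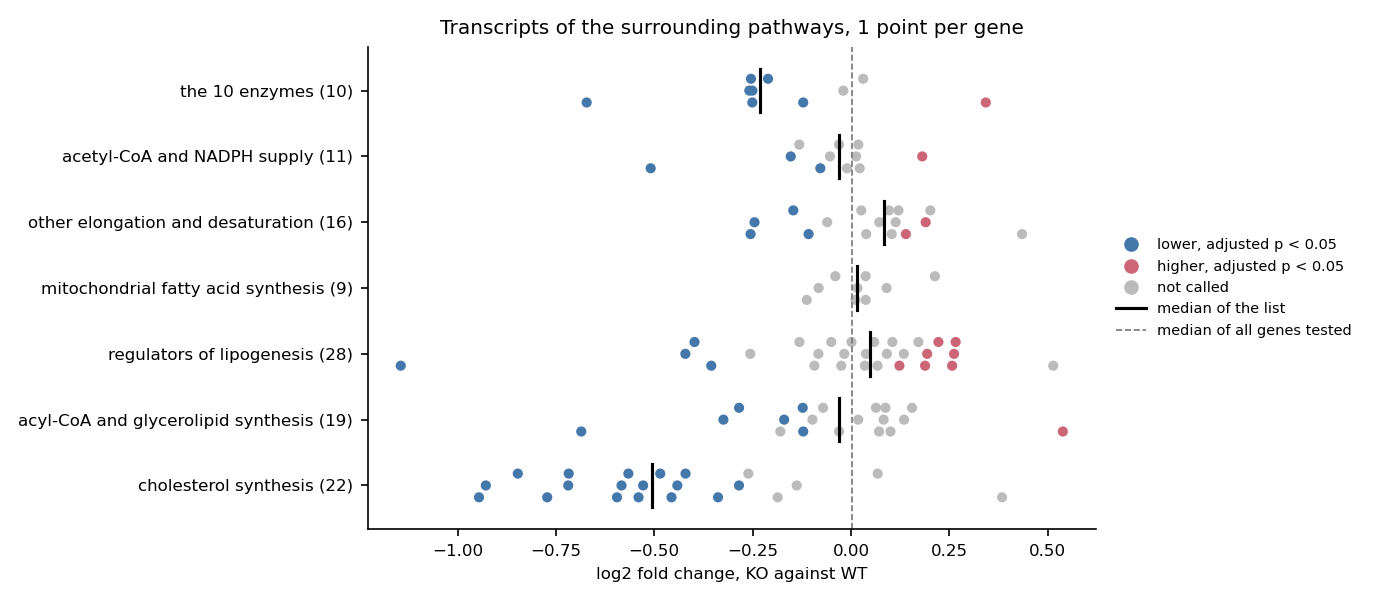
Log2 fold change of KO against WT (horizontal axis) for the tested genes of 7 lists (vertical axis, number of genes in brackets), 1 point per gene, coloured by the call at an adjusted p under 0.05. Black bars mark list medians, from -0.51 for cholesterol synthesis to 0.08 for other elongation and desaturation, and the dashed line marks the median of all genes tested.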

How the data were processed

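Total RNA of E18.5 hearts was sequenced by the authors after ribosomal RNA depletion (KAPA RiboErase and HyperPrep), with paired reads. The submitters' processing notes name cutadapt 1.18, HISAT2, StringTie and mm10, and the counting program is not given in the sources used here. The values deposited by the authors are raw counts, 1 row per gene symbol, beside columns of their own edgeR comparison (fold change, mean level and significance), which were not used. Columns carry genotypes but no replicate numbers.

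Counts were analysed with edgeR 4.0.16 in R 4.3.3. Genes were filtered with filterByExpr (13804 kept), scaled with TMM and tested with the quasi-likelihood test, genotype being the only term. Standard errors are the log2 fold change divided by the root of the F statistic. Intervals cover 95%. Gene positions and merged exon lengths came from GENCODE M21 (GRCm38), promoters from RefSeq. The test was checked on simulated counts with known changes in 200 genes. It recovered 46.5% of changes of 1.2-fold, 86% of 1.5-fold and 95% of 2-fold. False calls numbered 1, 8 and 13 in these runs, and 0 with no gene changed. A change near 1.2-fold can thus be missed. Within each genotype, all pairs of libraries differed by more than sampling noise. Chi-square per degree of freedom was 1.56 to 3.76, the largest with WT c. Each library was counted as 1 replicate. The chi-square cannot tell separate embryos from separate preparations of the same RNA. The common coefficient of variation between libraries beyond counting, as estimated by edgeR, was 3.42%.

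The 10 enzymes and all gene lists were chosen with earlier results of these data known. Named were all 10 enzymes, up to 6 called genes per list by size of change, and fixed regulators, and 1 gene that this rule names is not reported here. Alternatives were RLE scaling, TMM without *Rn45s*, DESeq2 1.42.0, likelihood ratio and exact tests, voom of limma 3.58.1, other filters, X and Y genes left out, equal depth (15567624 counts), WT a and WT b summed, and each library left out. Figures were drawn with matplotlib 3.10.9.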

Additional observations from a re-analysis of the deposited data

How the results depend on the processing

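No paired analysis was possible because no replicate number stands in the column names. The 10 enzymes kept their direction under all 17 alternatives. Of 7 lower calls, 5 were left under DESeq2, 6 after summing WT a with WT b and 5 to 7 with 1 library left out (5 without KO b or KO c), and 1 enzyme was higher throughout. The lost calls were those of *Acaca* in 6 alternatives, with a log2 fold change of -0.12 under DESeq2, -0.13 after summing WT a with WT b (adjusted p = 0.051 by edgeR's quasi-likelihood test) and -0.13 to -0.11 with 1 library left out, and of *Fads2* in 4, with -0.25 under DESeq2 and -0.28 to -0.23 with 1 library left out. Without WT c, the library farthest from its group, 7 were lower and 1 higher. The *Fads1* to *Fads2* log2 difference changed sign to 0.0145 without WT c, 0.0108 without KO a and 0.00521 without KO b, a range of -0.0173 to 0.0145. The other ratios kept their direction, at -0.67 to -0.64 for *Scd1* to *Scd2*, -0.66 to -0.53 for *Elovl5* to *Elovl6*, -0.17 to -0.12 for *Acaca* to *Acacb* and 0.07 to 0.12 for *Acaca* to *Fasn*. Sterol genes called lower numbered 16 under DESeq2 and 16 to 18 with 1 library left out. Under DESeq2, calls in other elongation and desaturation went from 4 to 2 lower and from 2 to 1 higher, and in glycerolipid synthesis from 6 to 3 lower. With 1 library left out, other elongation and desaturation had 2 to 4 lower (2 without KO b or KO c) and 0 to 2 higher calls (0 without WT a, 1 without WT b, KO a, KO b or KO c), glycerolipid synthesis 3 to 5 lower (3 without KO a) and 1 to 2 higher (2 without WT a or KO c), and acetyl-CoA and NADPH supply 1 to 3 lower (1 without KO a). These fits use fewer libraries, and for the rest the cause was not tested. With the length of the longest transcript, WT levels per kilobase were 31.9 for *Acacb*, 27.0 for *Elovl5*, 26.8 for *Fasn*, 26.4 for *Acly*, 15.8 for *Fads1*, 8.51 for *Acaca*, 5.28 for *Fads2*, 3.31 for *Scd1* and 2.31 for *Elovl6*. *Scd1*, *Elovl6* and *Fads2*, at 160 to 347 counts per library, are the least precise of the enzymes.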

Other observations

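Markers of other cell types gave the following values by edgeR's quasi-likelihood test. Their counts are to be read beside the shares over all genes tested, 15.7% lower and 14.6% higher. Of 6 tested atrial markers, 3 were higher in KO hearts (*Myl4*, *Myl7* and *Nppa*) and 0 lower (0 also at an unadjusted p under 0.05 and 0 with DESeq2), and the list summed to 595 to 601 CPM in WT and to 1006 to 1030 CPM in KO libraries. Endothelial markers were lower in 3 of 6 (2 with DESeq2), with sums of 1066 to 1071 CPM against 993 to 1008 CPM. Fibroblast markers were lower in 2 of 6 (1 with DESeq2), with sums of 2642 to 2645 CPM against 2428 to 2476 CPM. Epicardial markers were higher in 2 of 5 (1 with DESeq2). Smooth muscle markers were lower in 1 and higher in 1 of 4, and erythroid markers lower in 1 and higher in 1 of 3. Of 6 immune markers 0 were called (1 at an unadjusted p under 0.05, 1 with edgeR's exact test and 0 with DESeq2), and of 2 Schwann cell markers 0 (0 also at an unadjusted p under 0.05 and 0 with DESeq2). Their part in the changes of the lipogenic enzymes was not tested.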
